A study of Mus musculus with 1183 samples.

Results

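Transcription factors that set or hold the identity of immune cells were followed across the labelled cell subtypes of the neonatal mouse lung. The set held 40 genes, found by their symbols among the 18072 genes of the count table, and all 40 were found. Single immune cells were taken from distal lungs of newborn mice, at postnatal day 7, under hyperoxia, meaning breathing air enriched in oxygen. Nearly all passed a sort gate named CD45, the surface protein shared by leukocytes, and each well of a plate gave 1 Tn5-based library. There were 1183 cells from 2 animals, 598 from 1 female and 585 from 1 male, and the labels gave each cell 1 of 16 subtypes. The labels name no strain or genotype, every cell came from a hyperoxic animal, and animals kept in room air were not analysed here.

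Lineage factors bind DNA beside each other and open or close the genes of a cell type, and many of them hold each other in check. Spi1 (PU.1) and the C/EBP proteins drive myeloid genes, the GATA proteins with Tal1 and Lmo2 drive erythroid, megakaryocytic and mast cell genes, and Pax5 with Ebf1 or Tcf7 with Lef1 hold the B and T cell programs. In the lung, Pparg and Bhlhe41 are known from alveolar macrophages, Maf from interstitial macrophages, Nr4a1 from the monocytes that patrol vessels, and Irf8 with Batf3 from the dendritic cells that present antigen to CD8 T cells.

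Values are given for the female first and the male second. A level is the depth-scaled count (CPM) in the summed reads of all cells of a subtype in 1 animal. It is not divided by gene length, so levels are compared between subtypes and not between genes. For shares, the reads of every cell were drawn down to 100000, and a cell held a gene when 3 or more of those reads fell in it. Changes were called with edgeR's quasi-likelihood test on the summed counts of the 2 animals, at a Benjamini-Hochberg adjusted p under 0.05 over all genes tested. How the subtypes were named is not given in the sources used here; if it was from these cells' expression, a call describes how the named classes differ. In such sums, fewer cells that hold a gene and less RNA per cell cannot be told apart, and the shares of cells are given for that reason.

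In 15 subtypes, those of 5 or more cells per animal, the summed libraries held 6024429 to 235566546 reads, from cells of 16753 to 7560179 reads (median 1100966). A count of 0 in such a library allows a level of up to 0.0127 to 0.498 CPM, the level of 3 reads. Most labels carried their markers, but mast cell II did not: of 6 mast cell markers (Cpa3, Kit, Tpsb2, Cma1, Mcpt4 and Hdc) 2 and 4 reached 20 CPM there, with a sum of 321.5 and 512 CPM against 215640 and 221322 CPM in mast cells. Cells labelled NK numbered 5 and 7 and carried T cell markers beside those of NK cells (sums of 1369.5 and 3818 CPM for T cell markers, 4161 and 14995 CPM for NK markers). In IL cells, 9 and 5 in number, the T cell marker sum was 1433 and 677 CPM. Part of the cells of the female were sequenced in a run of their own, and 885 cells of both animals shared a run.

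Across the 15 subtypes, 37 of the 40 members differed in at least 1 subtype, where 34.3% of all 15600 genes tested did. The members not called were Batf (adjusted p = 0.726), Lmo2 (adjusted p = 0.367) and Gfi1 (adjusted p = 0.0572). In 27 of 40 members (67.5%) the same subtype had the highest level in both animals, against 4026 of 12184 genes (33.04%) that reached 20 CPM in some library. The specificity index tau, which is 0 for a gene at 1 level everywhere and 1 for a gene of 1 subtype, had a median of 0.919 and 0.904 over the members and 0.78 and 0.779 over all such genes. Members ranged from broad to narrow. Id2, Runx1, Nr4a1 and Ikzf1 reached 20 CPM in at least 13 subtypes of both animals, while 13 members (Cebpe, Gata1, Gata2, Klf1, Gfi1, Gfi1b, Bhlhe41, Pax5, Ebf1, Lef1, Tbx21, Eomes and Tal1) did so in at most 4. All members but Cebpe, Gfi1 and Eomes were held by at least 25% of the cells of some subtype in both animals, 37 of 40.

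**Figure D1:**
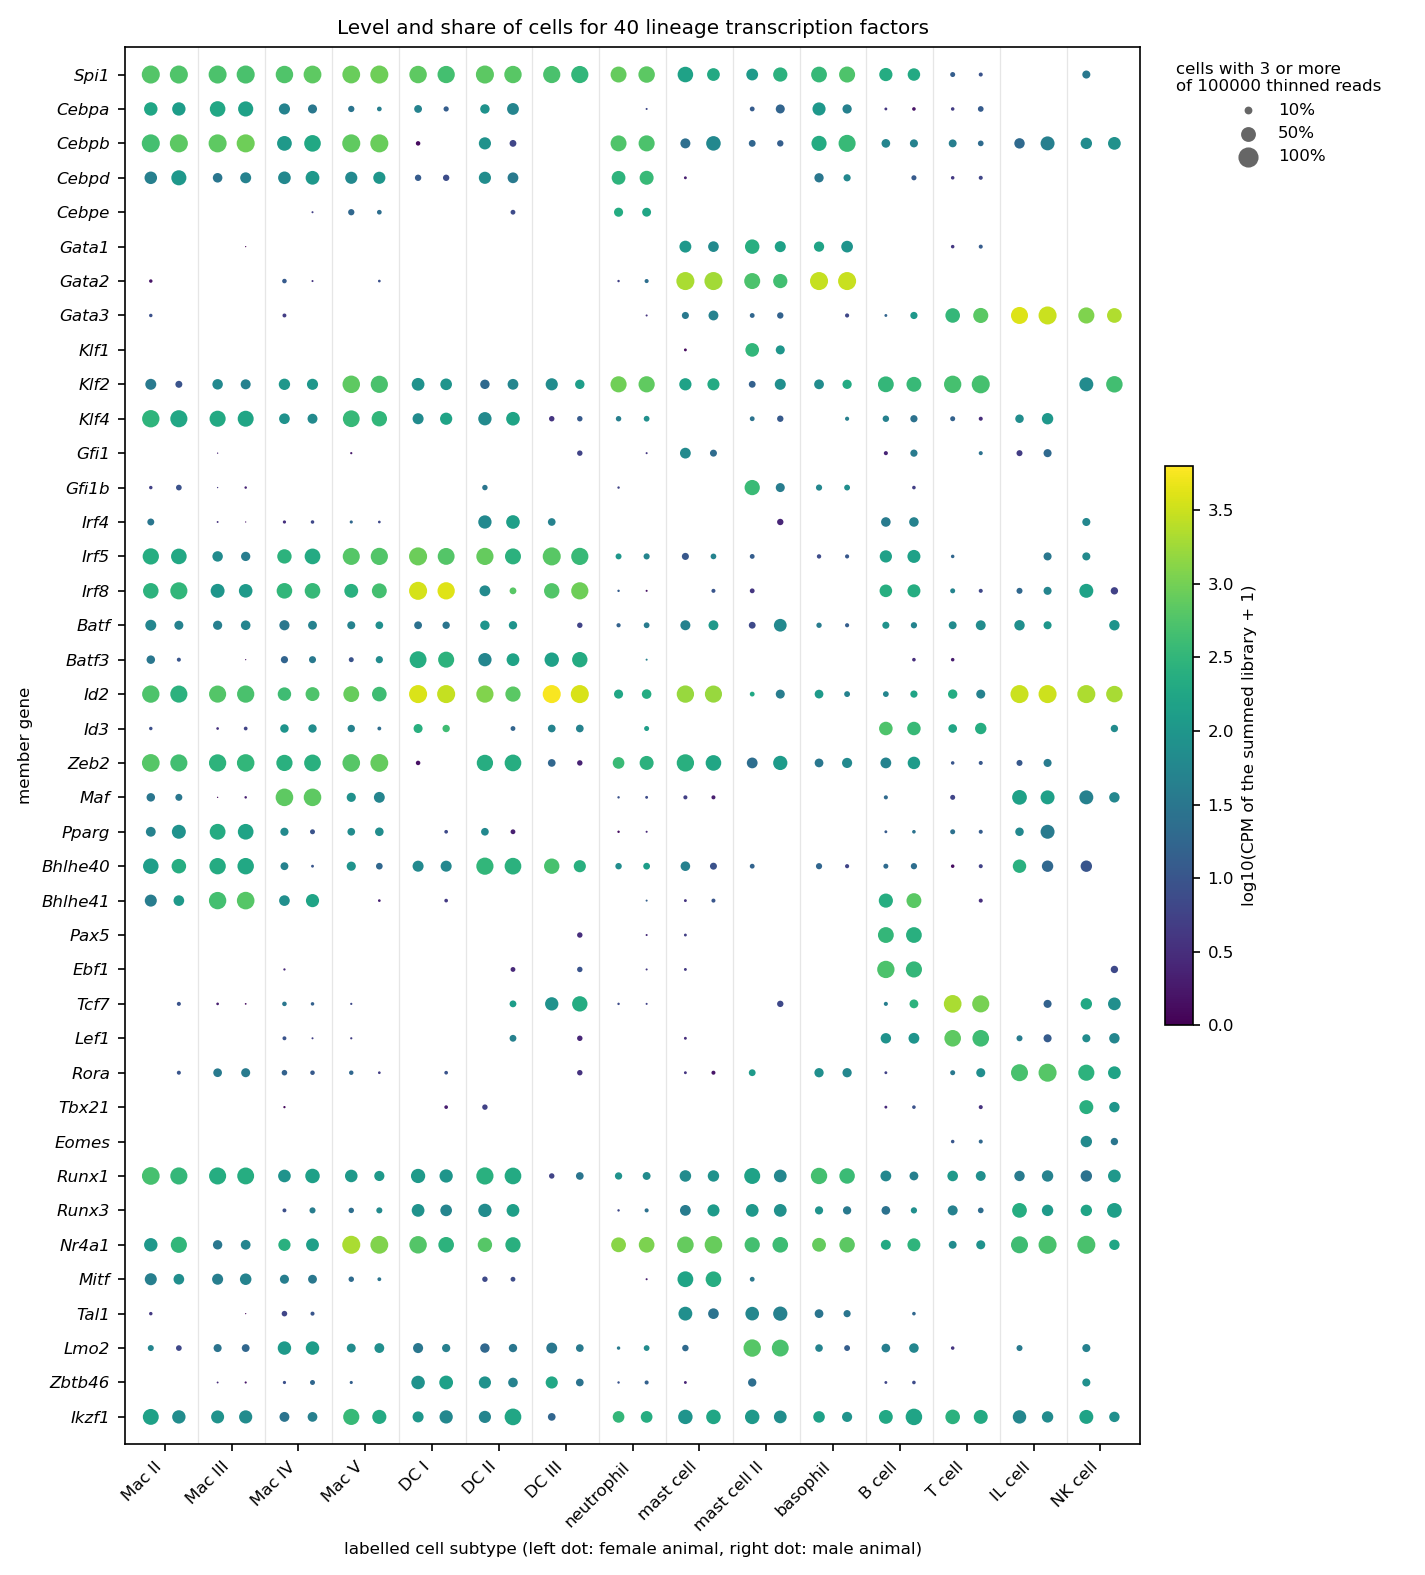
Each row is 1 of the 40 members and each column 1 of 15 labelled subtypes, with the female animal as the left dot and the male as the right. Dot area gives the percentage of cells that hold the gene after thinning to 100000 reads and colour gives log10(CPM + 1) of the summed library. Pax5 and Ebf1 fill the B cell column alone, Gata2 the mast cell, mast cell II and basophil columns, and Spi1 most columns, with the T, IL and NK cell columns nearly empty.

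Gata1 and Gata2 had their 3 highest levels in 3 subtypes, mast cells, mast cell II and basophils. Gata2, which mast cells and basophils need, stood at 2942 CPM (female) and 3049 CPM (male) in basophils, at 2074 and 1878 CPM in mast cells and at 528 and 453 CPM in mast cell II. It was held by 34 of 34 and 19 of 19 cells in basophils and 39 of 39 and 20 of 20 cells in mast cells, every cell, and by 11 of 14 and 5 of 8 cells in mast cell II. In the other subtypes Gata2 reached at most 22.7 CPM, in the neutrophils of the male. Gata1, the erythroid and megakaryocytic relative, stood at 237.7 CPM (female) and 148.02 CPM (male) in mast cell II, 160.96 and 92.4 CPM in basophils and 104.5 and 63.4 CPM in mast cells. The order of the 3 subtypes was the same in both animals for each gene, but the Gata1 levels of the animals overlapped between mast cell II and basophils and between basophils and mast cells. Every mast cell and basophil that held Gata1 also held Gata2, and in mast cell II 8 of 14 and 3 of 8 cells held both, with 1 cell of the female holding Gata1 alone. Tal1, which joins GATA factors on DNA, stood at 74.7 and 27.3 CPM in mast cells. It stood at 57.4 and 44.7 CPM in mast cell II and, lower in both animals, at 29.4 and 29.2 CPM in basophils. The mast cell levels of Tal1 overlapped those of mast cell II and of basophils. Its bridging partner Lmo2 stood at 633 CPM (female) and 519 CPM (male) in mast cell II, in 13 of 14 and 7 of 8 cells, and at no more than 49.3 CPM in mast cells and basophils. The next subtype for Lmo2 was Mac IV, at 111.3 and 122.97 CPM. Lmo2 was not among the 2 members called higher in mast cell II than in mast cells. Cells with both Tal1 and Lmo2 were 8 of 14 and 4 of 8 in mast cell II, 3 of 39 and 0 of 20 in mast cells and 1 of 34 and 0 of 19 in basophils.

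Promoter windows from RefSeq (GRCm38.p6, 250 bases before to 50 after each annotated start) were found for 34 of the 40 members, 53 windows in all. Spi1, Cebpd, Cebpe, Maf, Bhlhe40 and Lmo2 had no entry. The GATA motif, AGATAA or TGATAA on either strand, occurred in 8 of the 53 windows, of 7 members (Gfi1b, Tal1, Mitf, Klf1, Zbtb46, Lef1 and Batf), and in 18.614% of all 32851 windows. The 250 bases before the start are shown for the 4 members of the mast cell, mast cell II and basophil group that hold it, with the motif in capitals. The windows are Klf1 at chr8:84901732-84901981 (plus strand), Gfi1b at chr2:28621983-28622232 (minus strand), Tal1 at chr4:115056176-115056425 (plus strand) and Mitf at chr6:97929567-97929816 (plus strand), each read 5′ to 3′ along its gene.
Klf1: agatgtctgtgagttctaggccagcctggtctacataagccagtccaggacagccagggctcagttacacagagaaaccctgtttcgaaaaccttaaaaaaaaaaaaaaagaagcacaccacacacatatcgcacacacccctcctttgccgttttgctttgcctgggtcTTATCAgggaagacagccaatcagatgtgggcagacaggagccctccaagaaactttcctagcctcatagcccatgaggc
Gfi1b: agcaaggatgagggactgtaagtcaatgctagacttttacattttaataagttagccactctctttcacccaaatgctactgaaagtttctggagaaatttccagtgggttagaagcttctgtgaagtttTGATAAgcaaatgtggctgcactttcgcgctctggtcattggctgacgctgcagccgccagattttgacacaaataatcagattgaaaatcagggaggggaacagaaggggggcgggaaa
Tal1: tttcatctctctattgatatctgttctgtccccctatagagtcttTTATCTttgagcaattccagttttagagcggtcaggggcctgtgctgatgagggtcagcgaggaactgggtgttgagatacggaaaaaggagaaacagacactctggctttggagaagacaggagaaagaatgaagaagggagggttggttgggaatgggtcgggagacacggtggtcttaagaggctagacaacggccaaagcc
Mitf: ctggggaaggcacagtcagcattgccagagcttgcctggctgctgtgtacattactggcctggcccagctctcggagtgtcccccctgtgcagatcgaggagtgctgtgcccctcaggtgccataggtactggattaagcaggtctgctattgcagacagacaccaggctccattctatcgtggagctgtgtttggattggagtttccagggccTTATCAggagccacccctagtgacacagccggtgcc
The motif began 80 bases before the start in Klf1, 120 in Gfi1b and 36 in this window of Mitf, and farther upstream in Tal1. A second window of Mitf held it 13 bases before the start, and a further window of each of Tal1 and Mitf did not hold it, nor did the windows of Gata1 and Gata2. The IRF motif, GAAA, any 2 bases and GAAA, occurred in windows of Eomes and Ebf1 (3.443% of all windows), and the EBF motif, TCCC, any 2 bases and GGGA, in that of Gata1 (0.904%). A match says that these letters are present in the window.

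Mast cells and basophils differed in Mitf, the factor that drives mast cell granule genes. Mitf stood at 162.5 CPM (female) and 232.1 CPM (male) in mast cells, in 30 of 39 and 15 of 20 cells, and had 0 reads in the basophils of both animals, a difference of at least 4236-fold (adjusted p = 0.00289). Id2, an inhibitor of E proteins, was also higher in mast cells, at 1659 and 1642 CPM against 114.4 and 45.04 CPM in basophils (log2 fold change 4.22 ± 0.57 (SE), adjusted p = 0.0112). Basophils were higher in Runx1, a factor of definitive blood formation, with 455 and 390.8 CPM against 65.9 and 82.6 CPM (log2 fold change -2.69 ± 0.49 (SE), adjusted p = 0.0354). They were also higher in Gfi1b, a repressor protein that acts in the erythroid and megakaryocytic lines. Gfi1b stood at 56.9 and 72.1 CPM, from 4 of 34 and 2 of 19 cells, against 0.0324 and 0 CPM in mast cells. This was a ratio of 2735 (exact counting interval 757 to 22593, adjusted p = 0.0184). For these 4 genes, chosen by a test on the same 4 libraries, the levels of the 2 subtypes did not overlap, which is no further support. So 2 of the 26 members tested were higher in mast cells, where 1.16% of all 10852 genes were, and 2 in basophils, where 1.46% were. DESeq2 called 3 and 6. Gata2 itself missed the threshold (adjusted p = 0.355). Mitf and Id2 passed under each alternative run, while Gfi1b did not with the animal as a block (adjusted p = 0.0505) or within the shared run (adjusted p = 0.0539). Runx1 did not pass without the mast cell library of the female (adjusted p = 0.204), without that of the male (adjusted p = 0.13) or with cells weighted equally (adjusted p = 0.102). With a spread shared by all subtypes Gfi1b (adjusted p = 0.166) and Runx1 (0.0877) did not pass. In this pair 11 and 10 members were called without the basophil library of the female or the male.

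Cells labelled mast cell II were higher than mast cells in Klf1 and Gfi1b. Klf1, the erythroid Krüppel-like factor, stood at 313.02 CPM (female) and 96.9 CPM (male) and was held by 8 of 14 and 2 of 8 cells, against 0.324 and 0 CPM in mast cells (log2 fold change 9.41 ± 1.57 (SE), adjusted p = 0.0177). In the male, 1 cell gave 91.3% of the Klf1 reads. Outside mast cell II, Klf1 reached at most 0.324 CPM in any library. Gfi1b stood at 374.04 CPM (female) and 38.8 CPM (male), a ratio of 12599 to the 2 reads in mast cells (exact counting interval 3487 to 104047; adjusted p = 0.00789). Gfi1b was held by 10 of 14 and 2 of 8 cells of mast cell II, and in the male 51.8% of its reads came from 1 cell. In the male Gfi1b stood higher in basophils, at 72.1 CPM, than in mast cell II. At 30 CPM or more in the cell, the 8 and 2 cells with Klf1 all had Gfi1b, which 10 of 14 and 3 of 8 cells had. They all had Lmo2 and Kit too, but Kit was in every mast cell II cell and Lmo2 in 13 of 14 and 7 of 8. The overlap with Kit was therefore fixed and that with Lmo2 nearly so. These counts were made after the values were seen. Mast cells were higher in Gata2 (log2 fold change -2.70 ± 0.49 (SE), adjusted p = 0.0256), in Id2, at 1659 and 1642 CPM against 187.8 and 38.6 CPM (log2 fold change -4.61 ± 0.77 (SE), adjusted p = 0.0177), and in the repressor Gfi1, at 61.8 and 20.6 CPM in 14 of 39 and 3 of 20 cells against 0 reads, at least 525-fold (adjusted p = 0.0324). Of the Id2 reads of mast cell II in the female, 99.8% came from 1 cell. Mitf stood at 32.2 and 0 CPM in mast cell II, from 1 cell, and was not called (adjusted p = 0.232).

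In all, 2 of 29 members tested were higher in mast cell II, where 0.571% of 11212 genes were, and 3 in mast cells, where 2.2% were. DESeq2 called 3 and 5. In mast cell II the globin gene Hba-a1 and the heme enzyme gene Alas2 had 0 reads in both animals, and the sum of 3 erythroid markers was 2.7 and 1 CPM. Of 4 platelet and megakaryocyte markers 2 and 3 reached 20 CPM, with sums of 112.9 and 121.4 CPM, while the Mac IV markers summed to 2112 and 2863 CPM, nearly all from Apoe with 0 reads of C1qa, C1qb and C1qc. The Mac V markers summed to 669 and 522 CPM, mostly Plac8, and the part of any of these cells in the levels was not tested. In the basophils of the female the erythroid markers summed to 1711 CPM and in those of the male to 0, while Klf1 had 0 reads in both. Klf1 did not pass with cells weighted equally (adjusted p = 0.0652), Gfi1b within the shared run (adjusted p = 0.062), or Id2 within it (adjusted p = 0.0947). Gata2 did not pass without the mast cell library of the female (adjusted p = 0.157) or of the male (adjusted p = 0.164), and Gfi1 without that of the female (adjusted p = 0.272), with the animal as a block (adjusted p = 0.0704), with equal weights (adjusted p = 0.0597) or within the shared run (adjusted p = 0.0829). With a spread shared by all subtypes Id2 alone passed, and Klf1 (adjusted p = 0.179), Gfi1b (0.224), Gfi1 (0.296) and Gata2 (0.458) did not. Without the mast cell II library of the female or the male 8 and 11 members were called.

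**Figure D2:**
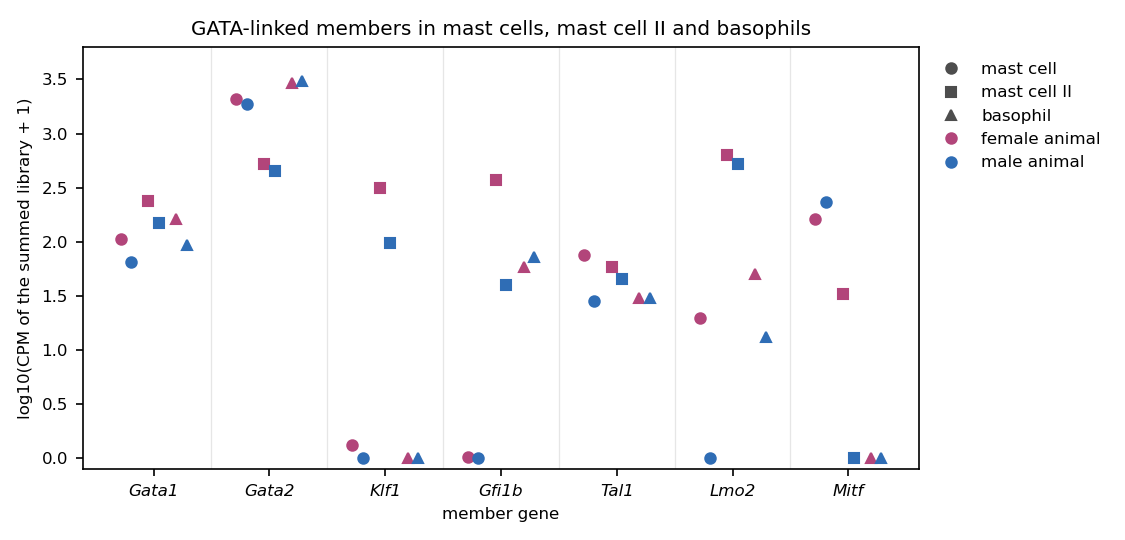
Points give log10(CPM + 1) of the summed library of each animal for 7 members in mast cells, mast cell II and basophils. Klf1 lies above 0.324 CPM in the mast cell II libraries alone, Mitf is at 0 in both basophil libraries, and Gata2 is lowest in mast cell II.

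Spi1, the myeloid master factor, had its highest level in Mac V in both animals, 860.4 CPM (female) and 917 CPM (male), with neutrophils next in the female (799 and 688 CPM) and Mac IV next in the male (558 and 714 CPM). In the 4 macrophage and 3 dendritic subtypes its levels lay between 321.4 and 917 CPM, and at least 90.9% of the cells held it. Levels elsewhere were 345.9 and 548 CPM in basophils, and lower in B cells (217.8 and 197.4 CPM), mast cells (155.9 and 198.8 CPM) and mast cell II (113.9 and 268.3 CPM) and stood at 12.2 and 8.33 CPM in T cells. IL cells had 0 reads of it. Of the mast cell II cells of the female that held Gata1, 1 of 9 also held Spi1, against 13 of 17 in mast cells and 10 of 11 in basophils. In the male these were 2 of 3, 4 of 7 and 7 of 8, so the low share in mast cell II was seen in 1 animal.

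The C/EBP factors had their highest levels in macrophage subtypes or neutrophils. Cebpa, which starts the granulocyte and monocyte program, was highest in Mac III (182.6 and 150.0043 CPM) and next in Mac II (174.6 and 122.99 CPM) in both animals, and neutrophils had 0.0474 and 5.41 CPM, in 0 of 55 and 1 of 78 cells. Cebpb, induced in inflamed and mature myeloid cells, stood at 716 and 924 CPM in Mac III, 744 and 847 CPM in Mac V, 569 and 526 CPM in neutrophils and 455 and 699 CPM in Mac II, and the order of Mac III and Mac V differed between the animals. Cebpd was highest in neutrophils, at 284.97 CPM (female) and 367.05 CPM (male), 4.04 and 3.46 times the next subtype. Cebpe, needed for the secondary granules of neutrophils, was highest in neutrophils as well, at 216.4 CPM (female) and 171.3 CPM (male), yet only 14 of 55 and 19 of 78 cells held it. No neutrophil held both Cebpa and Cebpe, and Gfi1, which represses monocyte genes in granulocyte precursors, was held by 0 of 55 and 1 of 78 cells.

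Within neutrophils, Cebpe went with the secondary granule genes. Spearman's coefficient over the 56 and 78 cells was 0.614 and 0.585 with Ngp, 0.61 and 0.602 with Camp and 0.651 and 0.585 with Ltf. Cebpd had 0.093 and 0.151 with Ngp and Cebpb -0.198 and -0.271. These coefficients are descriptions over cells that share a library preparation, and both genes of a pair also moved with depth (0.23 and 0.177 for Cebpe, 0.39 and 0.193 for Ngp), but after thinning the coefficients of Cebpe with Ngp were 0.655 and 0.561. At 30 CPM or more in the cell, 8 and 14 neutrophils had both Cebpe and Ngp, 6 and 6 had Cebpe alone and 1 and 6 had Ngp alone, a count made after the values were seen. The largest group, 41 and 52 cells, had neither.

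**Figure D3:**
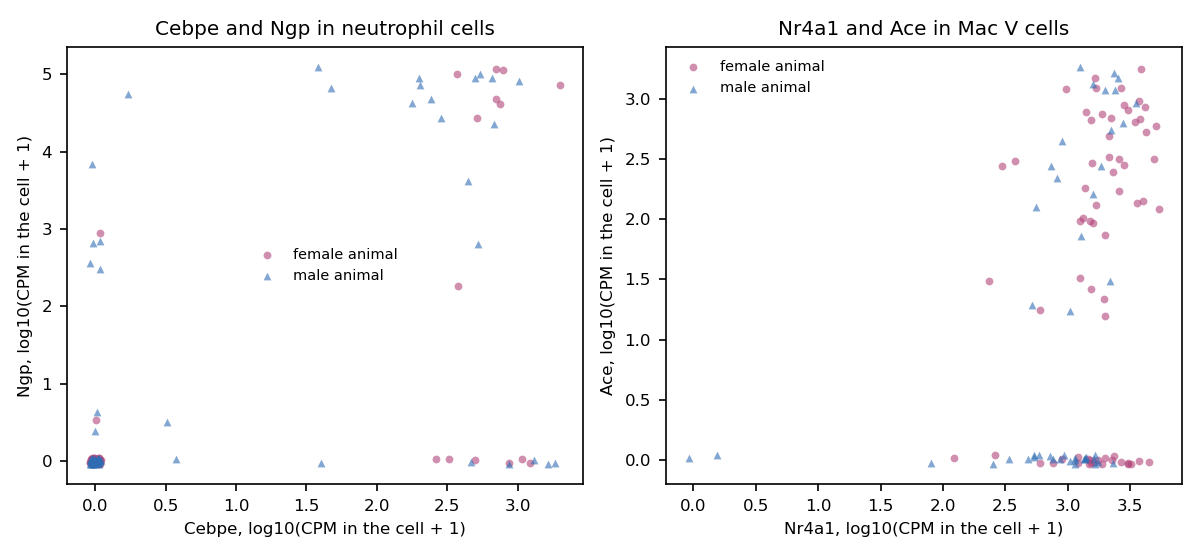
Each point is 1 cell, with points spread slightly so that overlapping cells can be seen, and both axes give log10(CPM in the cell + 1). On the left, neutrophils with Cebpe and Ngp lie at the upper right and most cells lie at the origin; on the right, Mac V cells show Ace over the whole range at a high level of Nr4a1, with coefficient 0.256 in the female and 0.516 in the male.

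Compared with Mac V, neutrophils were higher in Cebpe, with 17.5 and 21.7 CPM in Mac V (log2 fold change 3.86 ± 0.48 (SE), adjusted p = 0.0356). It was the 1 member called of 32 tested, where 0.654% of 11469 genes were higher in neutrophils and 0.192% in Mac V. In the direction of Mac V edgeR called 0 members, with 8 at an unadjusted p under 0.05. DESeq2 called 2 higher in neutrophils and 7 in Mac V. Klf2 and Nr4a1, at their 2 highest levels of all subtypes in neutrophils and Mac V, missed the threshold (adjusted p = 0.258 and adjusted p = 0.899). Erythroid markers summed to 21.43 CPM in the neutrophils of the female and 5135 CPM in those of the male, and their part was not tested. The call for Cebpe was lost without the Mac V library of the female (adjusted p = 0.167), without that of the male (adjusted p = 0.11), with the animal as a block (adjusted p = 0.0654), within the shared run (adjusted p = 0.0727) and with a spread shared by all subtypes (adjusted p = 0.494). In this pair 4 and 7 members were called without the neutrophil library of the female or the male.

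Mac V was the subtype with the highest level of Nr4a1, the factor of Ly6C-low patrolling monocytes, at 2051 CPM (female) and 1208 CPM (male). It was held by 66 of 66 and 43 of 44 cells, and neutrophils came next, at 1342 and 1140 CPM. Klf4, a monocyte factor, was highest in Mac V too (349.9 and 319.99 CPM). Klf2, which keeps leukocytes quiescent and in circulation, was second in Mac V to neutrophils (709 and 511 CPM against 934 and 744 CPM). Within Mac V, Nr4a1 went up with Ace, a marker of patrolling monocytes (coefficient 0.256 over 66 cells and 0.516 over 45), and down with Ly6c2, a marker of classical monocytes (-0.328 and -0.521). Cebpb had the same signs (0.45 and 0.469 with Ace, -0.517 and -0.27 with Ly6c2), as did Klf4 (0.354 and 0.288, -0.172 and -0.184), while Irf8 had the opposite ones (-0.297 and -0.303 with Ace, 0.23 and 0.072 with Ly6c2). Ly6c2 moved with depth as well, with coefficient 0.212 and 0.414.

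Mac III carried the alveolar macrophage factors. Pparg, the lipid-sensing nuclear receptor on which alveolar macrophages depend, stood at 209.5 CPM (female) and 160.3 CPM (male) in 76.8% and 75.5% of the cells. Bhlhe41, a factor tied to the identity of these cells, stood at 453 CPM (female) and 628 CPM (male), and its relative Bhlhe40 at 210.3 and 186.2 CPM. The Spearman coefficient of Pparg with Fabp4, Car4 and Siglecf within Mac III lay between -0.162 and 0.156 and changed sign between the animals for each of the 3 genes. Mac IV carried Maf, a factor of tissue macrophages that are slow to divide, at 719.7 CPM (female) and 729 CPM (male) in 60 of 63 and 75 of 79 cells, against 0.325 and 1.21 CPM in Mac III. Within Mac IV, Maf went with the mannose receptor gene Mrc1 (coefficient 0.627 and 0.543 over 63 and 79 cells) and not in a fixed direction with C1qa (0.081 and -0.092), and the coefficient of Maf with depth was -0.31 and -0.46. Cells with both Maf and Pparg numbered 1 and 4 in Mac III and 13 and 6 in Mac IV, where no cell held Pparg without Maf.

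Mac III and Mac IV differed in 15 of 34 members tested. Higher in Mac III were 5, where 5.26% of 14304 genes were, and higher in Mac IV were 10, where 6.7% were. DESeq2 called 10 and 16. Those higher in Mac III were Cebpb at 716 and 924 CPM against 107.7 and 186.7 CPM (log2 fold change 2.49 ± 0.38 (SE), adjusted p = 0.016), Bhlhe41 against 73.8 and 163.2 CPM (log2 fold change 2.20 ± 0.47 (SE), adjusted p = 0.0382), Cebpa against 49.7 and 32.3 CPM (log2 fold change 2.05 ± 0.30 (SE), adjusted p = 0.0142) and Klf4 at 193.8 and 171.8 CPM against 82.9 and 61.8 CPM (log2 fold change 1.36 ± 0.25 (SE), adjusted p = 0.0274). The fifth, Gfi1b, came from 0.552% and 1.92% of the cells at 3.31 and 1.53 CPM, with 0 reads in Mac IV. Pparg was not called (adjusted p = 0.126), with 63.1 and 8.53 CPM in Mac IV, far apart in the animals.

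Mac IV was higher in Maf (log2 fold change -9.84 ± 0.85 (SE), adjusted p = 0.00364) and in Runx3, a factor of lymphocytes and dendritic cells, at 7.25 and 37.9 CPM against 0.0573 and 0.0509 CPM (log2 fold change -8.69 ± 1.22 (SE), adjusted p = 0.013). It was also higher in Batf3 (14.98 and 33.5 CPM against 0.0334 and 0.454 CPM, adjusted p = 0.0421), Tcf7 (31.5 and 13.7 CPM against 1.11 and 0.369 CPM, adjusted p = 0.0255), Id3 (92.3 and 69.1 CPM against 2.47 and 4.90 CPM, adjusted p = 0.00704) and Lmo2 (111.3 and 122.97 CPM against 28.1 and 17.1 CPM, adjusted p = 0.0135). The other 4 were Lef1, Nr4a1, Irf5 and Irf8. Runx3, Batf3, Tcf7 and Id3 were held by a minority of Mac IV cells: 3 of 63 and 9 of 79 cells, 10 of 63 and 12 of 79 cells, 4 of 63 and 3 of 79 cells and 14 of 63 and 17 of 79 cells. Markers of T cells (46.9 and 34.4 CPM in sum over 5 genes) and of B cells (91.2 and 89.6 CPM over 4 genes) were present at low levels in Mac IV, against at most 5.68 CPM in Mac III. Platelet markers summed to 4943 and 8613 CPM in Mac IV (4 genes, mostly Pf4 at 4729 and 8575 CPM) and erythroid markers to 8.72 and 2236 CPM (3 genes), against at most 3.38 CPM in Mac III. Their part in these results was not tested. Batf3 did not pass within the shared run (adjusted p = 0.073), Klf4 without the Mac III library of the female (adjusted p = 0.184) or of the male (adjusted p = 0.124), and without the latter neither did Tcf7 (adjusted p = 0.0506) nor Lmo2 (adjusted p = 0.0599). With a spread shared by all subtypes Maf and Runx3 alone passed of the 10 named (adjusted p = 0.00863 and 0.00486). The count of members called ran from 9 without the Mac III library of the male to 24 without either Mac IV library.

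Against Mac V, Mac III was higher in Bhlhe41, with 0.872 and 1.24 CPM in Mac V (log2 fold change 8.93 ± 0.41 (SE), adjusted p = 0.00172), in Cebpa (27.6 and 39.8 CPM in Mac V, adjusted p = 0.0178) and in Pparg (67.9 and 69.5 CPM in Mac V, adjusted p = 0.0362). Mac V was higher in Nr4a1, against 30.95 and 52.8 CPM in Mac III (log2 fold change -5.36 ± 0.48 (SE), adjusted p = 0.00701), Klf2 against 60.5 and 43.6 CPM (log2 fold change -3.64 ± 0.31 (SE), adjusted p = 0.00629), and Irf5, the factor of inflammatory macrophage genes, at 621 and 578 CPM against 64.97 and 38.7 CPM (log2 fold change -3.62 ± 0.33 (SE), adjusted p = 0.00717). Maf, Runx3 and Ikzf1 were also higher in Mac V, at 79.4 and 53.3 CPM, 21.6 and 63.4 CPM and 358.3 and 202.5 CPM, against 0.325 and 1.21 CPM, 0.0573 and 0.0509 CPM and 88.02 and 67.8 CPM. The other 3 were Zeb2, Irf8 and Cebpe, the last at 17.5 and 21.7 CPM against 3 reads in Mac III. Neutrophil markers (6 genes) summed to 729 and 1101 CPM in Mac V against at most 110.7 CPM in Mac III, those of immature neutrophils (4 genes) to at most 2.23 CPM in both, and their part in the Cebpe level was not tested. In all 3 of 32 members tested were higher in Mac III, where 3.99% of 13441 genes were, and 9 in Mac V, where 5.25% were. DESeq2 called 6 and 15. Cebpa, Pparg and Ikzf1 did not pass without the Mac III library of the female (adjusted p = 0.0947, 0.299 and 0.0902) or of the male (adjusted p = 0.0538, 0.159 and 0.173). The count of members called was 6 and 7 in those fits and 23 and 24 without the Mac V library of the female or the male. Cebpa and Pparg did not pass within the shared run (adjusted p = 0.141 and 0.0522), and Pparg did not with cells weighted equally (adjusted p = 0.0665). With a spread shared by all subtypes Klf2 (adjusted p = 0.145), Irf5 (0.538), Ikzf1 (0.468), Cebpa (0.781) and Pparg (0.973) did not pass.

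Mac IV and Mac V differed in 7 of 33 members tested. Mac IV was higher in Bhlhe41 (log2 fold change 6.77 ± 0.70 (SE), adjusted p = 0.00862) and Maf (log2 fold change 3.39 ± 0.37 (SE), adjusted p = 0.00994), 2 members where 2.31% of 13053 genes were higher. Mac V was higher in 5, where 2.07% were: Nr4a1 against 259.6 and 133.4 CPM in Mac IV (log2 fold change -3.12 ± 0.47 (SE), adjusted p = 0.025), Ikzf1 against 28.01 and 43.1 CPM, Klf2 against 103.3 and 102.1 CPM, Cebpb and Klf4. Their log2 fold changes were -3.03, -2.63, -2.49 and -2.28 for Ikzf1, Klf2, Cebpb and Klf4, with adjusted p between 0.017 and 0.0293. DESeq2 called 3 and 7. For these genes, chosen by a test on the same libraries, the Mac IV and Mac V levels did not overlap, which is no further support. With a spread shared by all subtypes none of the 7 passed (adjusted p = 0.0919 for Bhlhe41 and 0.393 for Maf). With any 1 library left out Maf stayed called: without the Mac IV library of the female Cebpb (adjusted p = 0.0789), Klf2 (0.0536), Klf4 (0.06) and Ikzf1 (0.077) did not pass. Without that of the male neither did Klf2 (0.0723), Klf4 (0.11), Ikzf1 (0.0608), Bhlhe41 (0.0682) and Nr4a1 (0.0843), the count was 3 and 2 in those fits, and it was 11 without the Mac V library of the female.

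Mac II lay between other macrophage subtypes in several of these factors. Its levels of Bhlhe41 (38.3 and 108.5 CPM) lay between those of Mac III and Mac V, its levels of Maf (30.6 and 30.7 CPM) between those of Mac III and Mac V too, and its levels of Klf4 (291.03 and 180.9 CPM) were second to Mac V. Pparg, at 45.5 and 82.9 CPM, had no fixed place, below Mac V in the female and above it in the male. Runx1 was highest in Mac II in the female and in basophils in the male (482 and 336.1 CPM and 455 and 390.8 CPM). Zeb2, which is needed for mononuclear phagocyte identity, was highest in Mac II in the female and Mac V in the male, at 629.9 and 442 CPM and 618 and 810.4 CPM. Mac II was in none of the tested pairs.

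Most cells of DC I and DC III held Irf8 and most cells of DC II held Irf4, a pair of related factors tied to different dendritic lines. DC I carried Irf8 at 3616 CPM (female) and 4079 CPM (male), in 16 of 16 and 22 of 24 cells, and Batf3, its partner on DNA, at 224.04 and 274.97 CPM. Irf4, the factor of type 2 dendritic cells, was held by 0 of 16 and 0 of 24 cells in DC I and stood at 60.9 CPM (female) and 134.95 CPM (male) in DC II, in 6 of 11 and 8 of 14 cells. In DC II 4 and 8 cells held Irf4 alone, 2 and 2 Irf8 alone, 2 and 0 both and 3 and 4 neither, and in DC III 8 and 10 cells held Irf8 alone, 2 and 0 Irf4 alone and none both. In the DC II cells of the male 88.1% of the Irf8 reads came from 1 cell, and both of its cells with Irf8 also had Siglech, a marker of plasmacytoid dendritic cells, at 30 CPM or more. The 3 plasmacytoid markers summed to 67 CPM in the DC II cells of the female and 621 CPM in those of the male. Zbtb46, a factor of conventional dendritic cells, stood at 83.8 and 142.1 CPM in DC I and 82.6 and 47.5 CPM in DC II. In DC III it stood at 184.8 and 27.4 CPM, a range that took in those of DC I and DC II. The DC I levels lay above those of DC II, by little for the female of each. Irf5 was highest in DC I (871 and 606 CPM) in both animals.

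DC I and DC II differed in 1 member of 26 tested. Zeb2 stood at 0.464 CPM (female) and 0.532 CPM (male) in DC I and 232.7 and 234.4 CPM in DC II (log2 fold change -8.73 ± 0.78 (SE), adjusted p = 0.00816), where 0.299% of 10693 genes were higher in DC II. In the direction of DC I, where 0.112% of genes were called, edgeR called 0 members, with 3 at an unadjusted p under 0.05. DESeq2 called 2 in that direction and 4 in the other. Irf8 missed the threshold (adjusted p = 0.376), with 62.5 and 659.5 CPM in DC II, as did Irf4 (adjusted p = 0.328), Id2 (adjusted p = 0.234) and Batf3 (adjusted p = 0.65). The Zeb2 call was lost with cells weighted equally (adjusted p = 0.0593) and within the shared run, where DC I of the female had 4 cells (adjusted p = 0.0835), and 3 members were called without the DC I library of the female or either DC II library.

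DC III, whose markers Ccr7, Fscn1, Ccl22 and Relb mark mature migrating dendritic cells, had the highest Id2 of all subtypes, at 5734 CPM (female) and 3663 CPM (male), in 11 of 11 and 11 of 11 cells. Tcf7, a factor of T cells, stood at 81.996 CPM (female) and 216.7 CPM (male) in 6 of 11 and 8 of 11 cells of DC III, against 0 and 0.0591 CPM in DC I and 0 and 126.3 CPM in DC II. At 30 CPM or more, every DC III cell had Ccr7, so its presence in the 6 and 8 cells with Tcf7 was fixed. Of these cells with Tcf7, 0 and 1 had any of 5 T cell markers. Those markers summed to 0.1 and 90.6 CPM in DC III and to 0.23 and 140.3 CPM in DC II, and their part in the Tcf7 levels was not tested. Bhlhe40, induced on activation, stood at 491 and 249.9 CPM in DC III and 321.2 and 267.3 CPM in DC II. Nr4a1, at 30.95 CPM or more in every other library, had 0 and 2.81 CPM in DC III, and Cebpa, Cebpb, Cebpd, Pparg, Mitf and Maf stood at 3.58 CPM or less. Against DC II, DC III was lower in Runx3, with 0 reads against 66.3 and 135.2 CPM, at least 907-fold (adjusted p = 0.0468). It was the 1 member called of 28 tested, where 1.23% of 9885 genes were lower and 1.15% higher. edgeR called 0 members higher in DC III, with 2 at an unadjusted p under 0.05. DESeq2 called 1 higher and 8 lower. Runx3 did not pass without the DC II library of the male (adjusted p = 0.185), with the animal as a block (adjusted p = 0.0854), where 1 other member was called, or within the shared run (adjusted p = 0.366), and 3 to 6 members were called when 1 library was left out.

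**Figure D4:**
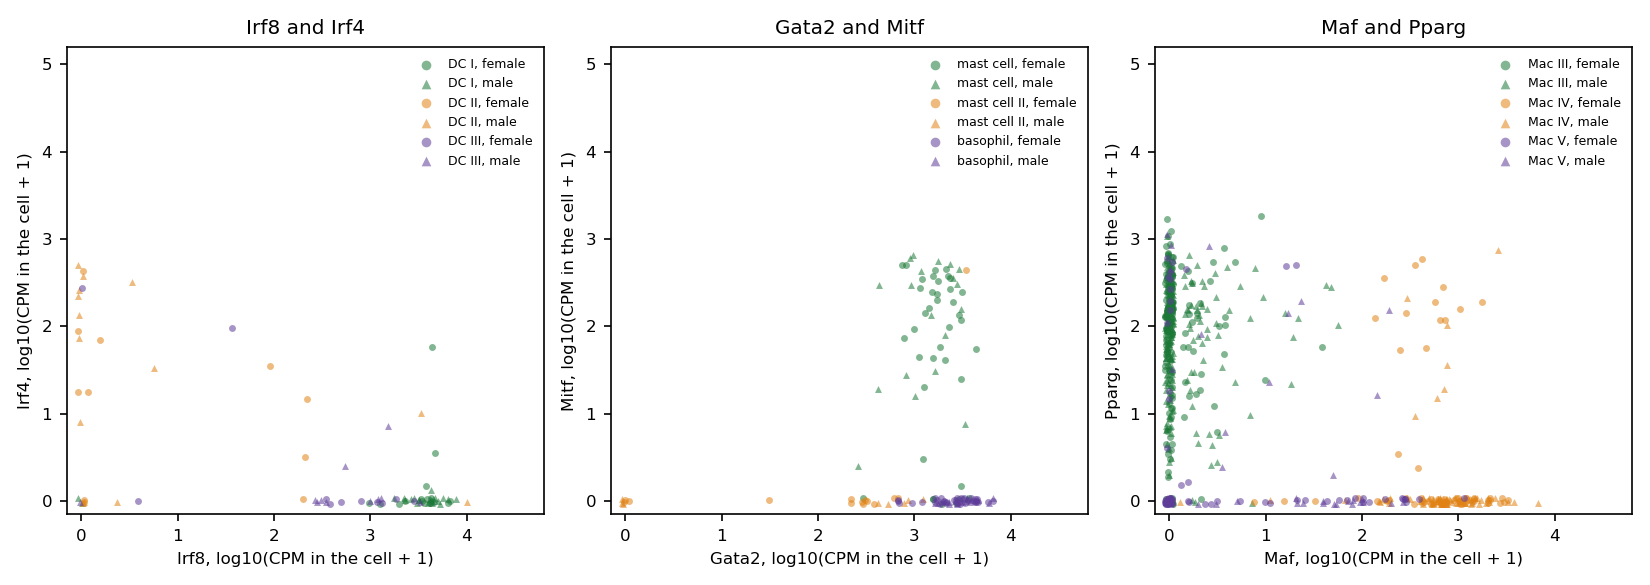
Each point is 1 cell, spread slightly so that overlapping cells can be seen, and both axes give log10(CPM in the cell + 1) for Irf8 and Irf4 in dendritic cells, Gata2 and Mitf in mast cells, mast cell II and basophils, and Maf and Pparg in Mac III, Mac IV and Mac V. DC I cells lie along the Irf8 axis with Irf4 held by none, 4 and 8 DC II cells hold Irf4 alone while others hold Irf8, both or neither, basophils have Gata2 with Mitf at 0, and most Mac III cells lie along the Pparg axis while most Mac IV cells lie along the Maf axis.

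Pax5, which holds B cell identity, stood at 322.7 CPM (female) and 245.5 CPM (male) in 30 of 39 and 19 of 25 cells, 80.7 and 116.5 times the next subtype. Ebf1, which acts before and with it, stood at 529.9 CPM (female) and 322.1 CPM (male) in 36 of 39 and 20 of 25 cells. Both were held by 29 of 39 and 17 of 25 B cells. B cells also had Bhlhe41 at 230.8 CPM (female) and 668 CPM (male), the highest of all subtypes in the male and second to Mac III in the female, and Id3, an inhibitor of E proteins, at 552 and 368.2 CPM. T cells carried Tcf7 at 2073 CPM (female) and 1049.9 CPM (male) in 25 of 26 and 18 of 20 cells. Its relative Lef1 stood at 731 and 421 CPM, with both genes in 21 of 26 and 16 of 20 cells. Gata3 stood at 341.8 and 679 CPM in T cells. Against B cells, T cells were lower in Ebf1 (log2 fold change -10.93 ± 0.64 (SE), adjusted p = 0.000629), in Bhlhe41 (log2 fold change -7.81 ± 0.79 (SE), adjusted p = 0.00611), in Spi1 (log2 fold change -4.23 ± 0.54 (SE), adjusted p = 0.0195) and in Pax5, with 2 reads in T cells, a ratio of 8944 (exact counting interval 2476 to 73857; adjusted p = 0.00143). They were higher in Lef1, with 85.3 and 92.5 CPM in B cells (log2 fold change 2.80 ± 0.43 (SE), adjusted p = 0.0359). These were 4 and 1 of 34 members tested, where 0.74% of 11493 genes were lower in T cells and 0.357% higher. DESeq2 called 10 and 6. Tcf7 was not called (adjusted p = 0.222), with 39.9 and 272.9 CPM in B cells. T cell markers summed to 330.1 and 623 CPM in B cells (4623 and 4625 CPM in T cells), neutrophil markers to 31.1 and 2327 CPM and erythroid markers to 0.02 and 962 CPM, and their part in the Tcf7 and Lef1 levels was not tested. Lef1 did not pass without the B cell library of the female (adjusted p = 0.0578), with the animal as a block (adjusted p = 0.0675) or within the shared run (adjusted p = 0.0805). Spi1 did not pass within the shared run (adjusted p = 0.35) or with cells weighted equally (adjusted p = 0.0727), and without the T cell library of the female 10 members were called. With a spread shared by all subtypes none of the 5 passed (adjusted p = 0.0674 for Bhlhe41, 0.139 for Pax5, 0.213 for Ebf1, 0.247 for Spi1 and 0.838 for Lef1).

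IL cells, whose markers include Il7r, Il1rl1 and Areg, had the highest Gata3 and Rora, the factors of type 2 innate lymphoid cells. Gata3 stood at 3943 CPM (female) and 3116 CPM (male) in 8 of 9 and 5 of 5 cells. Rora stood at 493 CPM (female) and 636 CPM (male), and 8 of 9 and 5 of 5 cells held both. Gata3 and Rora are also among the 7 genes of the IL cell marker list, so they are no check of that label. Id2, which the innate lymphoid lines need, stood at 3138 and 3290.1 CPM, in 9 of 9 and 5 of 5 cells, and Maf at 149.9 and 137.9 CPM, second to Mac IV. At 30 CPM or more, 5 and 4 cells had Gata3 with any of 5 T cell markers and 3 and 1 had Gata3 without them. Against T cells, IL cells were lower in Klf2, with 0 reads against 479 and 485 CPM, at least 3653-fold (adjusted p = 0.0123), and in Id3, with 0 reads against 173.2 and 226.1 CPM, at least 1472-fold (adjusted p = 0.0367). These were 2 of 30 members tested, where 0.256% of 10170 genes were lower. In the direction of IL cells, where 0.167% were called, edgeR called 0 members, with 8 at an unadjusted p under 0.05 and no call for Gata3 (adjusted p = 0.118), Id2 (adjusted p = 0.12) or Rora (adjusted p = 0.124). DESeq2 called 7 higher and 6 lower. Klf2 passed under each alternative run. Id3 did not without the T cell library of the male (adjusted p = 0.0824), with the animal as a block (adjusted p = 0.0922), within the shared run (adjusted p = 0.182) or with a spread shared by all subtypes (adjusted p = 0.142), and 4 to 9 members were called when 1 library was left out.

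Tbx21 and Eomes, the T-box factors of NK cells and effector T cells, had their highest levels in the cells labelled NK. Tbx21 stood at 248.3 CPM (female) and 98.6 CPM (male), in 3 of 5 and 2 of 6 cells, 52.8 and 12.3 times the next subtype, and Eomes at 63.1 and 29.7 CPM, in 2 of 5 and 1 of 6 cells. A single cell, of the female, held both. At 30 CPM or more, 1 and 0 of the 3 and 2 cells with Tbx21 had the NK receptor gene Ncr1, and 3 and 1 of them had any of 5 T cell markers. Gata3 stood at 1168 and 2211 CPM in these cells, of which 1 cell gave 67.6% and 73.5%. Runx3, which acts with Tbx21 in cytotoxic cells, stood at 165.2 and 132.1 CPM, from 2 of 5 and 4 of 6 cells, and its highest subtype was IL cell in the female (225.9 and 113.2 CPM) and DC II in the male. Ikzf1, a factor of all lymphoid lines, ranged from 1.28 CPM in the DC III cells of the male to 358.35 CPM in the Mac V cells of the female. Batf ranged from 0 to 110.3 CPM, with no subtype highest in both animals.

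**Figure D5:**
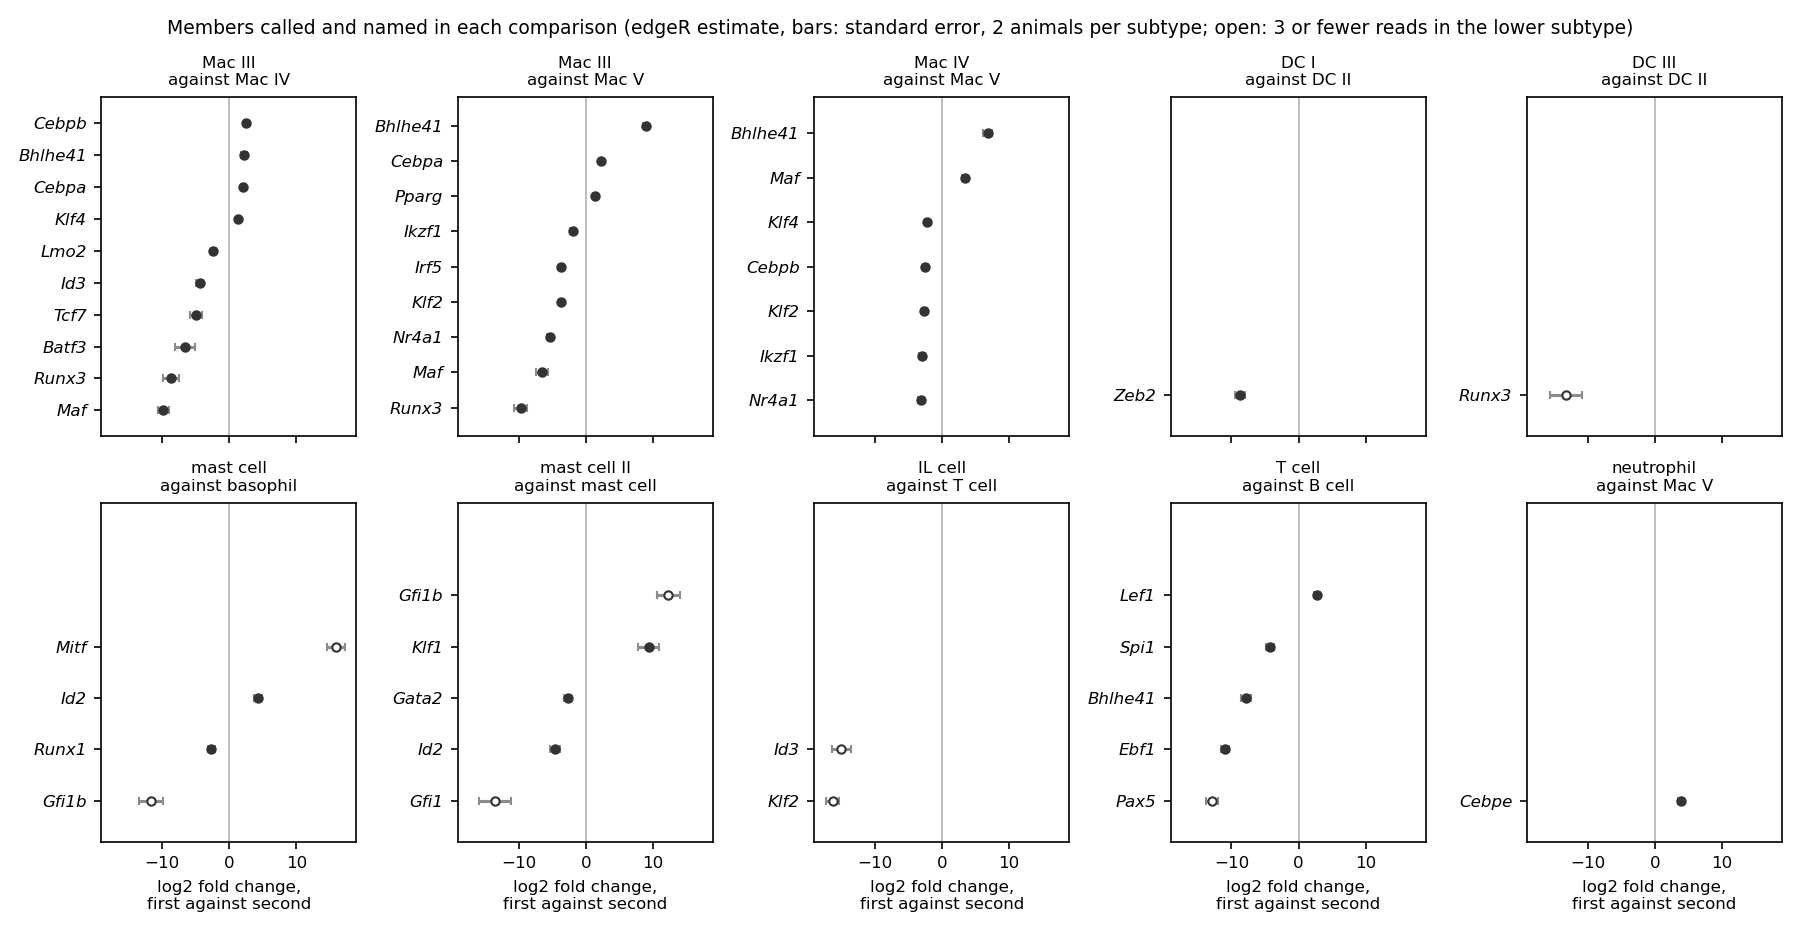
Each panel is 1 of the 10 comparisons, and each point the log2 fold change of a called member, first subtype against second, with its standard error from edgeR over 2 animals per subtype. Open points mark members with 3 or fewer reads in the lower subtype, whose fitted fold change is no bound. Mac III against Mac IV shows 10 named members and DC I against DC II, DC III against DC II and neutrophil against Mac V show 1 each.

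A second list of 50 lineage factors was read beside the members in the same fits. All 50 were in the table, and 35 to 45 were tested in each comparison. Of 45 tested, 5 were higher and 8 lower in Mac III against Mac IV, and 2 higher and 11 lower in Mac III against Mac V. In mast cell II 3 of 40 were higher than in mast cells: Nfe2, a factor of erythroid and megakaryocytic genes, at 398.4 and 284.5 CPM against 14.2 and 14.8 CPM, Bcl11a at 214.6 and 253.5 CPM against 1.38 and 0.907 CPM, and Hoxa9, a factor of early progenitors, at 122.8 and 41.1 CPM against 0 reads. Nfe2 was also higher in basophils than in mast cells, at 245.9 and 388.9 CPM (adjusted p = 0.011). Relb was higher in DC III than in DC II (adjusted p = 0.0163), and Spib in B cells, at 767 and 487 CPM against 0 reads in T cells (adjusted p = 0.000865). The median log2 fold change over the tested members lay between -1.87, in mast cell II against mast cell, and 0.19, in mast cell against basophil, where the medians over all tested genes were -0.10 and 0.17. A member passes the filter on low counts when 1 of the 2 subtypes is high in it, so these medians and the counts of called members describe the members tested and not all 40.

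For 4 members, Pax5, Ebf1, Tbx21 and Klf1, the highest subtype was at least 8-fold above the next in both animals. Over the 30 summed libraries, the genes most like 2 of them, Tbx21 and Klf1, in log2(CPM + 1), among 12184, were Ncr1, Ifng and Xcl1 for Tbx21 (Pearson's r 0.936, 0.933 and 0.932) and Hoxa9, Atp1b2 and Ermap for Klf1 (0.999, 0.996 and 0.967). These coefficients describe 30 libraries from 2 animals that share plates and runs. A gene detected in 1 subtype alone reaches a high coefficient with any other such gene.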

How the data were processed

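The authors deposited raw read counts per gene and cell, whole numbers over 18072 genes. Per the submitters' processing notes STAR 2.5.2b, HTSeq 0.10 and the build GRCh38 were used; GRCh38 is a human build while the labels give mouse, so the build of these counts is not certain and no count is tied to coordinates. Promoter coordinates are those of RefSeq on GRCm38.p6. Filters on genes and the strand of counting are not given in the sources used here, and no molecular identifiers are named, so intervals and floors cover counting error only. Reads of genes that overlap, or that are close copies, may be shared between them.

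Cells were grouped by the label cell subtype. For each subtype and animal the counts of its cells were added up (30 libraries), which makes the animal the replicate (n = 2); Mac I had 1 cell and stayed out of tests. With 1 animal per sex, sex and animal cannot be told apart. For each of 10 pairs, edgeR 4.0.16 (R 4.3.3) was run on the 4 libraries of the pair with TMM, filterByExpr and the quasi-likelihood F test, and over all 15 subtypes for any difference, with Benjamini-Hochberg adjustment over all genes tested. The common biological coefficient of variation was 0.685 to 1.193 in the pairs. Shares of cells came from cells thinned to 100000 reads (seed 1; 5 shallower cells left out), with exact 95% Clopper-Pearson intervals kept beside them. No doublet caller was run. No pair of cells had identical counts. All columns of the table were matched to a sample.

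The members, lists, pairs and rules were chosen with earlier results of these data known. Named in each comparison are called members, at most 6 in each direction by size, whose mean in the higher subtype is 20 CPM or more, with the same direction in both animals; others are given by count. Alternatives were DESeq2 1.42.0, no filter on low counts, the animal as a block, each cell scaled to the same total, the shared run alone, a spread shared by all 15 subtypes, and leaving out each library. The block pairs libraries of the same animal, as the labels name it; the correlation of their deviations was -0.022 to 0.088. On simulated counts edgeR recovered 49 of 100 genes changed 4-fold and 84 of 100 changed 16-fold for Mac III against Mac IV, with 35 false calls, 1 and 26 for IL cell against T cell with 0, and 6 and 34 for mast cell against basophil with 1. Proteins were not analysed here, and a few results on genes outside the 40 are not reported here.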

Additional observations from a re-analysis of the deposited data

Results flagged for a closer look

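The single cell labelled Mac I, from the male, was in no comparison. It had 2440163 reads, and 17 of the 40 members passed 3 reads in it. Nr4a1 stood at 736.02 CPM, Spi1 at 586.03, Irf8 at 360.22, Id2 at 212.28, Batf3 at 189.74, Irf5 at 188.92 and Cebpb at 185.23. Klf4 stood at 119.25 CPM, Lmo2 at 107.37, Cebpd at 97.53, Runx1 at 97.53, Cebpa at 91.39, Zeb2 at 70.49, Klf2 at 47.13, Maf at 31.97, Ikzf1 at 27.05 and Bhlhe40 at 15.98. A further 22 members had 0 reads. With 1 cell there is no replicate.

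In 6 tested pairs of a member and a comparison, the subtypes differed at least 2-fold in opposite directions in the female and the male; the difference was not tested, since each sex has 1 animal. For Runx3 in mast cell against basophil the log2 ratio was -1.23 in the female and 1.82 in the male. In IL cell against T cell it was -1.08 and 1.06 for Cebpb and -1.50 and 3.20 for Irf8. In T cell against B cell it was 2.05 and -1.87 for Id2 and 1.19 and -1.20 for Pparg. In neutrophil against Mac V it was -10.89 and 2.57 for Id3, which 6 of 78 neutrophils of the male and 0 of 55 of the female held. The value of -10.89 rests on 1 Id3 read in the neutrophils of the female, under the level of 3 reads, so its size is not measured.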

How the results depend on the processing

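No named change turned its direction under any alternative. The 45 named changes were recomputed under 6 alternatives and with each library left out, 450 values in all, of which 87 did not stay past the threshold. All 45 passed with DESeq2 and without the filter on low counts, 39 with every cell given equal weight, 39 with the replicate block for the animal, 32 within the shared run and 12 with a spread shared by all subtypes; the causes were not tested. For any subtype 37 members were called with each of the 5 smallest libraries left out, and 38 with DESeq2. In the pairs, the members called came to 26 with DESeq2 and 2 with the shared spread for Mac III against Mac IV (15 as reported, 9 to 24 with 1 library left out), 21 and 4 for Mac III against Mac V (12; 6 to 24), and 0 with the shared spread for Mac IV against Mac V (7; 2 to 11). For DC I against DC II (1; 1 to 3) they were 6 with DESeq2, 6 without the filter, 2 with the replicate block, 0 with cells scaled and 0 within the shared run. For DC III against DC II (1; 3 to 6) they were 9, 6 and, within the run, 0, with 9 under the shared spread. For mast cell against basophil (4; 3 to 11) they were 9 with DESeq2 and 10 without the filter. For mast cell II against mast cell (5; 4 to 11) they were 8, 9, 3 with cells scaled, 3 within the run and 1 with the shared spread. For IL cell against T cell (2; 4 to 9) they were 13, 10, 1 with the block, 4 with cells scaled and 1 within the run. For T cell against B cell (5; 4 to 10) they were 16, 11 and, with the shared spread, 0. For neutrophil against Mac V (1; 0 to 7) they were 9, 3, 0 with the block, 3 with cells scaled, 0 within the run and 0 with the shared spread. Over all genes DESeq2 moved the share of calls higher in the first subtype from 27.3% to 44.9% for DC I against DC II, 48.3% to 33.5% for DC III against DC II, 44.4% to 63% for mast cell against basophil, 20.6% to 38.1% for mast cell II against mast cell and 77.3% to 57.7% for neutrophil against Mac V. Where a fit leaves 1 library in a subtype, that library is assumed to vary like the other subtype. With 2 animals, p-values measure the spread between these animals only. NK and IL cells rest on 5 to 9 cells per animal, so a gene seen in no cell there may still be held by cells that were not sampled.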
